A study of Homo sapiens with 8 samples.

Results

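The RNA levels of 9 factors that make, process or degrade histone mRNA were followed here in 8 RNA-seq libraries of CTCF AID2 SEM cells. The factors are SLBP, NPAT, CASP8AP2, LSM10, LSM11, ZNF473, CPSF3, SYMPK and ERI1. They were chosen by gene symbol, each symbol matched 1 of the 60754 rows of the table, and all 9 were among the 15614 genes that reached a level of 1 TPM (a unit of RNA abundance corrected for transcript length and for the total of the library) in 1 library or more. SEM is an established human line of B-cell leukemia with a rearranged KMT2A gene, and in CTCF AID2 cells both alleles of CTCF, a DNA-binding organizer of chromatin loops, carry the miniAID-mClover3 degron tag. The cells also express OsTIR1(F74G) with Zeocin resistance from a lentiviral cassette driven by the MND promoter, so that the auxin analog 5-Ph-IAA leads to degradation of tagged CTCF. Each of the 2 clones analyzed, C17.2 and C3.2, grew from a single edited cell, so each stands for 1 clone and not for the line. Parental cells of each clone were untreated, with 2 libraries per clone. Resistant cells, also with 2 libraries per clone, had received 5-Ph-IAA at 1 μM together with Zeocin at 100 μg/ml over 36 days. They were then grown without either drug for a washout much shorter than the treatment, by which the study defines resistant cells. All 4 groups carry the tag and the OsTIR1(F74G) cassette, and the study's genotyping places a mutation that truncates CTCF in C17.2 resistant cells and a mutated tag on full-length CTCF in C3.2 resistant cells. The study's immunoblots of C17.2 resistant cells after drug removal showed tagged full-length CTCF again, beside the truncated form.

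Most mRNAs end in a poly(A) tail, but the mRNAs of the clustered histone genes, which supply histones during DNA replication, end just past a short stem-loop. SLBP binds that stem-loop and stays with the mRNA through export, translation and decay. The cut is made by the U7 snRNP, a small RNA-protein particle whose RNA pairs with the pre-mRNA downstream of the stem-loop, together with the endonuclease CPSF3 and its scaffold SYMPK. Transcription and processing meet in the histone locus body, a nuclear body at the histone gene clusters that holds NPAT and CASP8AP2. Ribosomal RNA had been depleted from total RNA before sequencing, so no poly(A) tail was needed for an RNA to enter these libraries.

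The substrate of these factors is shown by a stem-loop from each histone class. It is that of the gene with the highest mean TPM among those of the class in which the stem-loop letters were found. Each was read from GRCh38 at a position matched in Gencode release 44, with the 16 letters of the stem-loop in capitals and 5 flanking bases on each side.
HIST1H1B, chr6:27866792-27866817, minus strand: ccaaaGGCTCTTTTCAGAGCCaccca
HIST1H2AE, chr6:26217412-26217437, plus strand: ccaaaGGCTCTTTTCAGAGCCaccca
HIST1H2BE, chr6:26184205-26184230, plus strand: ccaaaGGCTCTTTTCAGAGCCactca
HIST1H3B, chr6:26031592-26031617, minus strand: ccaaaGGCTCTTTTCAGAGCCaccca
HIST1H4J, chr6:27824454-27824479, plus strand: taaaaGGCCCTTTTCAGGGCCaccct
The first 4 of these hold the same 16 letters, and that of the H4 gene differs from them on both sides of the stem. The exact letters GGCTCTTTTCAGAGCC were found within 120 bases after the stop codon, on the coding strand, in 34 of 60 tested clustered histone genes with a match in the annotation (56.7%) and in 0 of 11056 other tested protein-coding genes. With the facing pair of stem letters that varies left free (GGCNCTTTTCAGNGCC), 44 of the 60 (73.3%) and again 0 of the 11056 held a match. The letters were taken from these data, as the most frequent 16-letter hairpin in these windows of the clustered histone genes. The shares among histone genes therefore follow in part from that choice. The next pair of sequences shows an example of letters that can pair with the U7 snRNP. The first is the RNA of the U7 snRNP, encoded by RNU7-1, with its stretch CTCTTT in capitals. The second is the stretch downstream of the HIST1H4H stem-loop, with AAAGAG, the reverse complement of CTCTTT, in capitals. HIST1H4H was picked among genes that hold AAAGAG, which none of the genes printed above held within 40 bases after the stem-loop.
RNU7-1, chr12:6943816-6943878, plus strand: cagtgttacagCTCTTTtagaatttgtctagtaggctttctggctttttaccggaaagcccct
HIST1H4H downstream stretch, chr6:26285095-26285124, minus strand: ttttttcataAAAGAGcagacatcttgtta
The letters AAAGAG stood within 40 bases after the stem-loop in 14 of the 44 genes. How often they stand in windows of other genes was not counted. RNU7-1 itself was listed at 0 TPM in all 8 libraries, as were all 149 entries whose symbol starts with RNU7-, so the RNA of the particle could not be followed here.

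The 9 factors spanned a 14.8-fold range of mean TPM over the 8 libraries. SLBP was highest at 48.9 TPM, above 88.7% of the 11210 tested protein-coding genes. SYMPK at 30.9 TPM and CPSF3 at 30.8 TPM followed, and their libraries overlapped in 3 of the 4 groups, so this pair could not be ordered. CASP8AP2 at 26.5 TPM and NPAT at 19.7 TPM were next, and CPSF3, CASP8AP2, NPAT and LSM10 were separated in every group. LSM10 (11.4 TPM) overlapped ERI1 (8.76 TPM) in 1 group, and ERI1 overlapped ZNF473 (7.62 TPM) in 1 group. LSM11 was lowest at 3.31 TPM, above 16.4% of the protein-coding genes, although LSM10 and LSM11 enter the same ring of the U7 snRNP.

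TPM have a fixed total per library, so libraries were scaled before testing by a trimmed mean of log2 ratios, with factors between 0.893 and 1.16. Sequencing depth cannot be recovered from TPM and is unknown. Values per library below are the deposited TPM, whereas fold changes are differences of log2(scaled TPM + 1) between resistant and parental cells, tested with limma over all 15614 genes with Benjamini-Hochberg adjustment. This scale understates the change of low genes such as LSM11. In each library 36.0% to 43.3% of all TPM belonged to protein-coding genes. Across genes, Pearson's r between both libraries of a group was 0.968 to 0.979, and the labels do not say whether they were separate cultures, so p-values measure the spread between these libraries, which may be technical. The library names begin with serial numbers that run on within each clone and fall into separate ranges for the clones. What these numbers mark is not given in the sources used here, so levels that differ between clones cannot be told apart from levels that differ between these ranges. Of 8 B-lineage markers, 7 were at 1 TPM or more in every library and DNTT was below 1 TPM in all of them, and of 8 markers of T, myeloid and erythroid cells, 7 were below 1 TPM in all libraries and the highest value was 2.18 TPM, for LYZ. The B-lineage markers moved with the comparison. Their summed level was 695 to 746 TPM in parental and 640 to 644 TPM in resistant cells of C17.2, and 691 to 734 TPM and 553 to 589 TPM in those of C3.2. In each clone 4 of the 7 tested markers fell, with the lowest log2 fold change for IGLL1, a surrogate light chain, at -2.16 in C17.2 and -2.35 in C3.2, and PAX5 rose in C3.2 (0.27). LYZ was at 0.64 (adjusted p = 0.0713) and 0.85 (adjusted p = 0.0550). The part of these shifts in the values of the 9 factors was not tested. CTCF RNA was higher in resistant cells of both clones, by 0.44 on the log2 scale in C17.2 (adjusted p = 0.000795) and 0.34 in C3.2 (adjusted p = 0.00680), and CTCF lost its call in C3.2 when each clone was fitted alone (adjusted p = 0.0684) and without 1 parental library of C3.2 (adjusted p = 0.0518).

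In C17.2, 2 of the 9 factors rose in resistant cells, LSM11 and ZNF473, against 27.3% of all tested genes called in either direction and 13.4% called higher. In C3.2 limma called 0 of the 9, 2 of them had an unadjusted p under 0.05, and 11.4% of all tested genes were called, 4.46% higher and 6.90% lower. The median log2 fold change of the 9 was 0.15 in C17.2 and 0.038 in C3.2, where the median of all tested genes was 0 in both. The 95% confidence intervals of the 9 lay between -0.20 (CPSF3) and 0.59 (ZNF473) in C17.2 and between -0.32 (ERI1) and 0.39 (LSM10) in C3.2, which are 0.872-fold to 1.51-fold and 0.800-fold to 1.31-fold on the scaled TPM + 1 scale. In bulk RNA, fewer cells that hold a transcript and less of it per cell cannot be told apart.

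**Figure D1:**
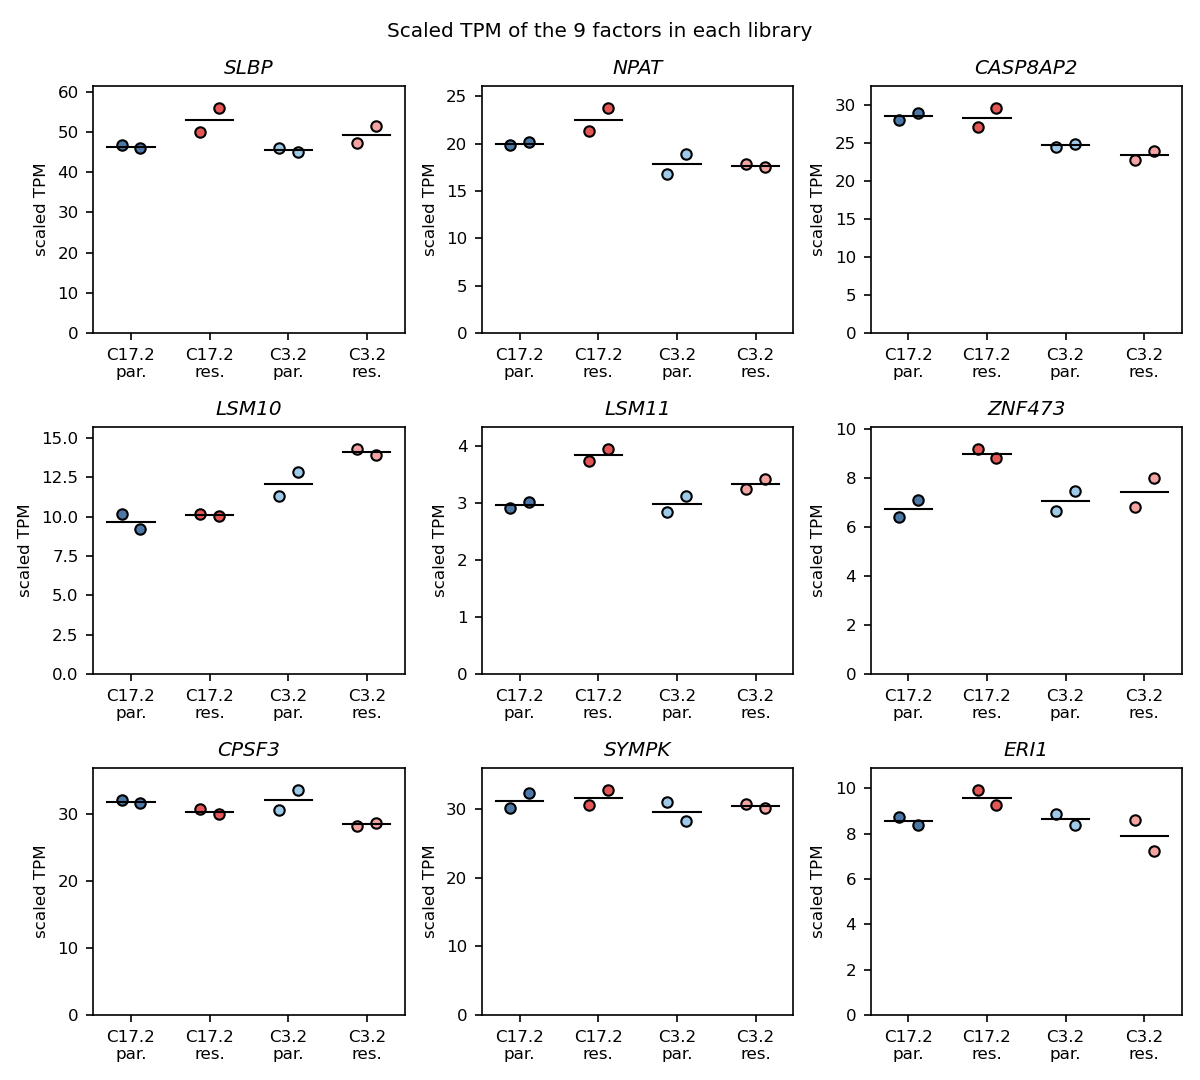
Scaled TPM (vertical axes, from 0) of the 9 factors in each of the 8 libraries, grouped as parental (par.) and resistant (res.) cells of C17.2 and C3.2; points are libraries and bars are means of 2 libraries. LSM11 and ZNF473 of C17.2 show resistant libraries clearly above the parental ones, and the other panels show smaller steps or overlap.

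The transcription and locus body factors came first in the order of roles. NPAT, a coactivator of histone genes that cyclin E-CDK2 phosphorylates, is encoded at chr11:108157215-108222638 on the minus strand (GRCh38, ENSG00000149308.17). It was listed at 20.8 and 19.9 TPM in C17.2 parental cells and at 23.9 and 27.4 TPM in resistant cells. In C3.2, it was at 15.0 and 17.4 TPM in parental cells and at 17.4 and 16.2 TPM in resistant cells. Both C17.2 resistant libraries were above both parental ones, whereas in C3.2 the groups overlapped. Its log2 change, with the 95% confidence interval in parentheses, was 0.16 (-0.018 to 0.34, adjusted p = 0.162) in C17.2 and -0.0068 (-0.19 to 0.17, adjusted p = 0.975) in C3.2.

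CASP8AP2, also known as FLASH, binds LSM11 and helps to recruit the cleavage machinery (chr6:89829894-89874436, plus strand, ENSG00000118412.12). Its levels were 29.5 and 28.6 TPM in C17.2 parental cells and 30.3 and 34.2 TPM in resistant cells. In C3.2, CASP8AP2 was listed at 21.9 and 22.9 TPM in parental cells and at 22.2 and 22.2 TPM in resistant cells. After scaling the C17.2 groups overlapped and both C3.2 resistant libraries were below the parental ones, with log2 fold changes of -0.011 (-0.15 to 0.12, adjusted p = 0.910) and -0.077 (-0.21 to 0.059, adjusted p = 0.428). The small value in C17.2 had no steady sign, and was 0.14 on TPM as deposited.

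LSM10 and LSM11 are the proteins that set the U7 snRNP apart from spliceosomal snRNPs, in whose ring other Sm proteins take their places. LSM10 (chr1:36391238-36397908, minus strand, ENSG00000181817.6) was listed at 10.7 and 9.12 TPM in C17.2 parental cells and at 11.4 and 11.6 TPM in resistant cells. LSM10 of C3.2 was at 10.1 and 11.9 TPM in parental cells and at 13.9 and 12.9 TPM in resistant cells. Both resistant libraries were above both parental ones in C3.2, and the C17.2 libraries overlapped after scaling. The log2 fold change was 0.057 (-0.12 to 0.24, adjusted p = 0.615) in C17.2 and 0.21 (0.030 to 0.39, adjusted p = 0.129) in C3.2, the largest value of the 9 in that clone. LSM10 of C3.2 passed the threshold in 1 alternative, TPM rescaled over protein-coding genes (0.30, adjusted p = 0.0397).

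LSM11 (chr5:157743712-157760709, plus strand, ENSG00000155858.6), which binds CASP8AP2, was listed at 3.06 and 2.97 TPM in C17.2 parental cells and at 4.19 and 4.55 TPM in resistant cells. In C3.2, LSM11 was at 2.53 and 2.87 TPM in parental cells and at 3.16 and 3.17 TPM in resistant cells. Resistant libraries were above parental ones in both clones. In C17.2 the means were 3.02 ± 0.0636 and 4.37 ± 0.255 TPM (SD, n = 2 each), a log2 change of 0.29 ± 0.075 (standard error, 95% interval 0.11 to 0.47, limma adjusted p = 0.0332). In C3.2 the log2 fold change was 0.13 (-0.056 to 0.31, adjusted p = 0.331). The call in C17.2 was lost with no filter on low genes (adjusted p = 0.0790), with each clone fitted alone (adjusted p = 0.0719) and without any 1 of the 4 C17.2 libraries (0.0710 to 0.122), with log2 fold changes of 0.26 to 0.32 in the latter.

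ZNF473, also known as ZFP100, contacts both LSM11 and SLBP bound to the stem-loop (chr19:50025714-50053414, plus strand, ENSG00000142528.16). It was listed at 6.70 and 6.98 TPM in C17.2 parental cells and at 10.3 and 10.2 TPM in resistant cells. In C3.2, ZNF473 was at 5.94 and 6.86 TPM in parental cells and at 6.65 and 7.40 TPM in resistant cells. The resistant libraries stood apart in C17.2 and overlapped the parental ones in C3.2. The means in C17.2 were 6.84 ± 0.198 and 10.2 ± 0.0566 TPM (SD, n = 2 each), a log2 change of 0.37 ± 0.093 (standard error, 95% interval 0.15 to 0.59, limma adjusted p = 0.0284), the largest of the 9 in either clone. In C3.2 it was 0.061 (-0.16 to 0.28, adjusted p = 0.721). The call was lost with no filter on low genes (adjusted p = 0.0600) and without any 1 of the 4 C17.2 libraries (0.0741 to 0.156).

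The rise of LSM11 and ZNF473 in C17.2 and the uncalled values in C3.2 do not by themselves show a difference between the clones. For ZNF473, the log2 fold change in C17.2 minus that in C3.2 was 0.31 (-0.0069 to 0.62, adjusted p = 0.195), and for LSM11 it was 0.16 (-0.095 to 0.42, adjusted p = 0.386). Of the 9 factors, limma called 0 for a difference between clones, 0 had an unadjusted p under 0.05, and 9.91% of all tested genes were called, 4.92% with a higher value in C17.2 and 5.00% with a lower one. The intervals of this difference ran from -0.40 (LSM10) to 0.62 (ZNF473), so differences of up to that size are not excluded.

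**Figure D2:**
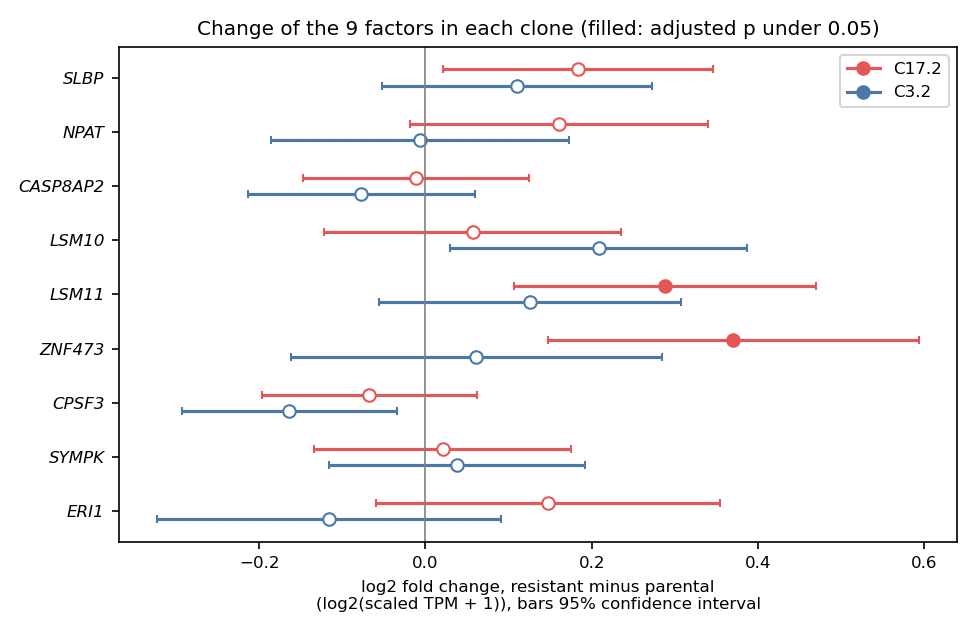
Log2 fold change of the 9 factors, resistant minus parental, on the log2(scaled TPM + 1) scale (horizontal axis), in C17.2 (red) and C3.2 (blue); bars are 95% confidence intervals from limma and filled points have an adjusted p under 0.05. The filled points are LSM11 at 0.29 and ZNF473 at 0.37, both in C17.2.

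SLBP, the stem-loop binding protein, is encoded at chr4:1692731-1712344 on the minus strand (ENSG00000163950.13). It was listed at 49.2 and 45.4 TPM in C17.2 parental cells and at 56.0 and 64.6 TPM in resistant cells. In C3.2, SLBP was at 41.1 and 41.6 TPM in parental cells and at 46.0 and 47.6 TPM in resistant cells. Both resistant libraries were above both parental ones in each clone, before and after scaling. The log2 fold change was 0.18 (0.021 to 0.35, unadjusted p = 0.0324, limma adjusted p = 0.0926) in C17.2 and 0.11 (-0.052 to 0.27, adjusted p = 0.339) in C3.2, so neither passed the threshold. SLBP passed it in C17.2 with the deposited TPM left unscaled (0.34, adjusted p = 0.0189) and with the protein-coding total as the scale (0.27, adjusted p = 0.0300).

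CPSF3, the endonuclease that also cuts polyadenylated pre-mRNAs, is encoded at chr2:9423651-9473101 on the plus strand (ENSG00000119203.14). Its levels were 33.7 and 31.4 TPM in C17.2 parental cells and 34.6 and 34.7 TPM in resistant cells. In C3.2, CPSF3 was listed at 27.3 and 30.95 TPM in parental cells and at 27.6 and 26.6 TPM in resistant cells. After scaling, resistant libraries were below parental ones in both clones. The log2 fold change was -0.068 (-0.20 to 0.062, adjusted p = 0.399) in C17.2 and -0.16 (-0.29 to -0.034, adjusted p = 0.107) in C3.2. On TPM as deposited the sign in C17.2 was turned, at 0.089.

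SYMPK, symplekin, is the scaffold on which CPSF3 acts (chr19:45815410-45863194, minus strand, ENSG00000125755.18). It was listed at 31.6 and 31.9 TPM in C17.2 parental cells and at 34.4 and 37.8 TPM in resistant cells. SYMPK of C3.2 was at 27.7 and 26.1 TPM in parental cells and at 29.9 and 27.9 TPM in resistant cells. The scaled libraries overlapped in both clones. The log2 fold changes were 0.021 (-0.13 to 0.18, adjusted p = 0.847) and 0.038 (-0.12 to 0.19, adjusted p = 0.753).

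ERI1, an exonuclease that binds the stem-loop and takes part in the decay of histone mRNA, is encoded at chr8:9002147-9116746 on the plus strand (ENSG00000104626.14). Its levels were 9.17 and 8.29 TPM in C17.2 parental cells and 11.1 and 10.7 TPM in resistant cells. In C3.2, ERI1 was listed at 7.92 and 7.75 TPM in parental cells and at 8.40 and 6.69 TPM in resistant cells. The C17.2 resistant libraries were above the parental ones and those of C3.2 overlapped. The log2 fold change was 0.15 (-0.060 to 0.35, adjusted p = 0.258) in C17.2 and -0.12 (-0.32 to 0.091, adjusted p = 0.432) in C3.2, with a difference between clones of 0.26 (-0.030 to 0.56, adjusted p = 0.228).

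Counted over the 9 factors, the scaled resistant libraries of C17.2 were both above both parental ones for 5, both below for 1 (CPSF3) and overlapping for 3 (CASP8AP2, LSM10 and SYMPK), whereas 66.0% of all tested genes did not overlap, 33.3% above and 32.7% below. In C3.2, 3 were above (SLBP, LSM10 and LSM11), 2 below (CASP8AP2 and CPSF3) and 4 overlapping, and 55.8% of all tested genes did not overlap, 27.8% above and 28.1% below. On TPM as deposited, all 9 were above in C17.2, where 49.2% of all tested genes were, and in C3.2, where 36.6% of all tested genes were above, 4 of the 9 were above and 5 overlapping. That scale also moved the median log2 fold change of all tested genes to 0.13 in C17.2 and 0.053 in C3.2. Relative to that median, the median of the 9 in C17.2 was 0.16 on TPM as deposited, 0.15 with the protein-coding total as the scale and 0.13 after quantile normalization. Of all called genes, the share that was higher moved with the scale too, from 49.1% to 75.1% on TPM as deposited and to 64.5% on the protein-coding total in C17.2. In C3.2 it moved from 39.3% to 57.8%, to 70.1% on the protein-coding total and to 50.8% after quantile normalization.

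**Figure D3:**
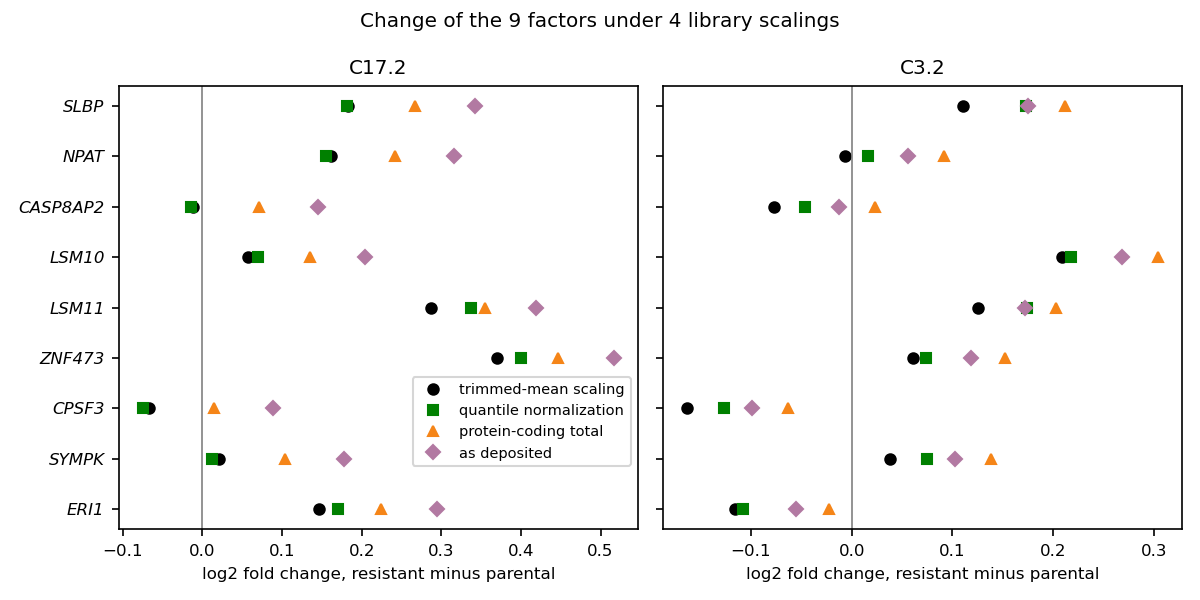
Log2 fold change of the 9 factors (horizontal axes, resistant minus parental) in C17.2 (left) and C3.2 (right) under 4 library scalings, marked by symbol. TPM as deposited put every factor of C17.2 above 0, with CPSF3 lowest at 0.089, whereas trimmed-mean scaling put CPSF3 at -0.068 and CASP8AP2 at -0.011.

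Levels of the 9 across the 8 libraries are given as a description, since the points share clones and libraries. On the log2(scaled TPM + 1) scale, LSM11 and ZNF473 had a Pearson's r of 0.93, SLBP and LSM11 of 0.88, NPAT and CASP8AP2 of 0.84, and CASP8AP2 and LSM10 of -0.92. These were picked as the values of largest size among all pairs of the 9. Other partners did not rise and fall together, with r of -0.045 for LSM10 and LSM11 and -0.38 for CPSF3 and SYMPK. CASP8AP2 and NPAT were lower and LSM10 higher in C3.2 than in C17.2, for parental cells as well. Of 10776 other protein-coding genes with a mean TPM of at least 1, those most like SLBP over the 8 libraries were HSD17B4 (r = 0.99), ENPP4 (r = 0.97) and PLCXD2 (r = 0.97), and those most like NPAT were RHNO1 (r = 0.996), FCGRT (r = 0.98) and LCP2 (r = 0.97). As the highest of 10776 values over only 8 libraries, these r values are high in part through the selection.

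Genes that start next to a factor were read beside it. SLBP and TACC3, which encodes a mitotic spindle protein, start 514 bases apart on opposite strands, and TACC3 rose in C17.2 by 0.37 on the log2 scale (adjusted p = 0.00349) and was at 0.16 in C3.2 (adjusted p = 0.111). CPSF3 and ITGB1BP1, which encodes a protein that binds integrin tails, start 123 bases apart on opposite strands. ITGB1BP1 rose in C17.2 by 0.50 (adjusted p = 0.0151), a call lost without either parental library (adjusted p = 0.0898 and 0.0893) or without resistant library 2 (adjusted p = 0.0774), while CPSF3 was at -0.068. NPAT and ATM, a DNA damage kinase, start 406 bases apart, and ATM was at -0.14 (adjusted p = 0.167) in C17.2 and 0.085 (adjusted p = 0.436) in C3.2. ZNF473 and the kinase gene VRK3 lie on opposite strands and overlap by 233 bases, and since no strand setting is given for the counting, reads there cannot be told apart. VRK3 was at 0.017 (adjusted p = 0.856) in C17.2, where ZNF473 was at 0.37. FOXA3, 795 bases from the start of SYMPK, stayed under 1 TPM.

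Of the 9 factors, 7 had a promoter entry of 300 bases around the start in RefSeq (GRCh38.p14), all but ZNF473 and ERI1. The promoters of NPAT and LSM11 are printed to show a factor with a divergent neighbor and the called factor that had an entry, with CCAAT or its reverse complement in capitals.
NPAT promoter, chr11:108222589-108222888, minus strand: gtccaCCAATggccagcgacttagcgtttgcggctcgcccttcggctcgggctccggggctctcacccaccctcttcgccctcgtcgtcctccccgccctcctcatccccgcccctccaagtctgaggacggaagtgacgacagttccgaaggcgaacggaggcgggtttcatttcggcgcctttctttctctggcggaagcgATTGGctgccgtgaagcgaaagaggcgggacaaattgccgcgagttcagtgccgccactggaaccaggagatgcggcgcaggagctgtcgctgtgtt
LSM11 promoter, chr5:157743462-157743761, plus strand: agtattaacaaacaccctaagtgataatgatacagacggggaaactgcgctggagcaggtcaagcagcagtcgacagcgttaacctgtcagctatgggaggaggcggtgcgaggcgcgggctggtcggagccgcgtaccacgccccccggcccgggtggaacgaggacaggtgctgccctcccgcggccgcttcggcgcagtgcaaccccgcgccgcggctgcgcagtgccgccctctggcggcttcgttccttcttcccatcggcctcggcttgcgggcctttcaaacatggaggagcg
The CCAAT box (CCAAT, both strands) was found in 3 of the 7, those of NPAT, CASP8AP2 and LSM10, and in 35.7% of all 27305 promoters. One E2F motif, TTTCCCGC, was in 0 of the 7 and in 1.66% of all, and another, TTTGGCGC, was in CPSF3 and CASP8AP2 and in 0.659% of all. The letters AGGGGGC from the core of the CTCF motif were in 0 of the 7 and in 14.1% of all. No match here says only that these letters are not in this window.

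The other genes of histone mRNA supply were followed in a list of 49 genes, of which 47 were tested. In C17.2, 11 rose and 4 fell, beside 13.4% and 13.9% of all tested genes, and in C3.2, 1 rose and 2 fell, beside 4.46% and 6.90%. The split in C17.2 moved with the scale, to 20 higher and 2 lower on TPM as deposited and to 17 and 2 with the protein-coding total as the scale, where most called genes of the whole table were higher too. The called genes of C17.2 comprised 3 of 5 Sm proteins of the U7 ring, 2 of 6 cap and elongation factors, 4 of 11 cleavage factors, 3 of 3 export and translation factors and 3 of 8 genes of SLBP turnover. Among 7 genes listed under transcription limma called 0 (1, the coilin gene COIL, with an unadjusted p under 0.05), and among 7 decay factors 0 (2 with an unadjusted p under 0.05). The median log2 fold change of the 47 was 0.044 in C17.2 and -0.043 in C3.2.

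NCBP2, the cap-binding subunit that marks new transcripts including histone mRNA, was listed at 35.9 and 33.3 TPM in C17.2 parental cells and at 64.0 and 65.2 TPM in resistant cells. This was a log2 fold change of 0.72 (standard error 0.045, adjusted p = 0.000172), the largest rise of the list. In C3.2, NCBP2 went from 37.2 and 36.3 TPM to 45.5 and 44.5 TPM, a log2 fold change of 0.22 (adjusted p = 0.0281). That call was lost when each clone was fitted alone (adjusted p = 0.121), without the intensity trend (adjusted p = 0.0595) and without 7 of the 8 libraries in turn (adjusted p of 0.0437 to 0.111 over all 8). SRRT, also known as ARS2, which works with the cap-binding complex, was at 75.4 and 66.2 TPM in C17.2 parental cells and at 103 and 103 TPM in resistant cells, a log2 fold change of 0.38 (adjusted p = 0.00319).

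SNRPG, SNRPE and SNRPF encode Sm proteins found in both the U7 and the spliceosomal rings, so they are not particular to histone mRNA. SNRPG was listed at 77.9 and 80.2 TPM in C17.2 parental cells and at 137 and 138 TPM in resistant cells, a log2 fold change of 0.63 (adjusted p = 0.000476), and was at -0.0080 in C3.2 (adjusted p = 0.946). SNRPE was at 24.5 and 24.0 TPM in C17.2 parental cells and at 34.5 and 39.1 TPM in resistant cells, a log2 fold change of 0.42 (adjusted p = 0.0414). That call was lost with no filter (adjusted p = 0.0765), without the intensity trend (0.0600) and without any 1 of 6 libraries, namely all 4 of C17.2 and the 2 parental ones of C3.2 (adjusted p up to 0.198). Sm genes have processed copies elsewhere in the genome that can share reads with them, so their TPM are uncertain.

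MIF4GD, also known as SLIP1, links SLBP on histone mRNA to translation. It was listed at 7.78 and 7.95 TPM in C17.2 parental cells and at 5.86 and 5.93 TPM in resistant cells, and fell by 0.50 on the log2 scale (adjusted p = 0.0155). The call was lost without any 1 of the 4 C17.2 libraries (adjusted p up to 0.104). MIF4GD shares 149 bases with MRPS7 on the opposite strand, which was at 0.30 (adjusted p = 0.0628).

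DDX19B, a helicase of mRNA export, was listed at 17.7 and 17.7 TPM in C17.2 parental cells and at 14.4 and 15.2 TPM in resistant cells. In C3.2, it went from 14.7 and 14.7 TPM to 11.3 and 11.6 TPM. DDX19B fell by 0.39 in C17.2 (adjusted p = 0.00411) and by 0.40 in C3.2 (adjusted p = 0.0102), the only gene of the list that fell in both. In C3.2 the call was lost when each clone was fitted alone (adjusted p = 0.0918) and without either parental library of C3.2 (adjusted p = 0.0823 and 0.0606). DDX19B shares 45 bases at its start with AARS1 on the opposite strand, which fell by 1.13 in C17.2 (adjusted p = 2.07e-05) and by 0.30 in C3.2 (adjusted p = 0.00712).

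CPSF1 and CPSF4 belong to the part of the cleavage machinery that reads the polyadenylation signal. In C17.2, CPSF1 was listed at 48.3 and 44.8 TPM in parental cells and at 44.6 and 41.1 TPM in resistant cells, and fell by 0.27 on the scaled log2 scale (adjusted p = 0.0215). CPSF4 was at 24.3 and 22.3 TPM in parental cells and at 22.8 and 22.4 TPM in resistant cells, and fell by 0.19 (adjusted p = 0.0415). Both calls depended on the scale, with adjusted p = 0.251 for CPSF1 and 0.743 for CPSF4 on TPM as deposited, and both were lost without 1 library, for CPSF1 either parental library or resistant library 2 of C17.2 (adjusted p up to 0.109) and for CPSF4 any of 6 libraries, all 4 of C17.2 and the parental pair of C3.2 (up to 0.160). CPSF4 lies within PTCD1 and shares 8899 bases with ATP5MF on the opposite strand, and ATP5MF rose by 0.50 in C17.2 (adjusted p = 0.000912). CCNA2, whose protein with CDK1 marks SLBP for degradation at the end of S phase, was listed at 41.2 and 43.1 TPM in C3.2 parental cells and at 39.5 and 37.7 TPM in resistant cells. CCNA2 fell by 0.19 in C3.2 (adjusted p = 0.0313), a call lost under 3 other scalings (adjusted p = 0.104 to 0.210), without the intensity trend (0.0707), with each clone fitted alone (0.0946) and without any 1 of 5 libraries, all 4 of C3.2 and parental library 2 of C17.2 (0.0505 to 0.120).

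The mRNAs that these factors act on were read from the clustered histone genes. Of 71 clustered histone genes, 62 were tested, 48 of them fell and 3 rose in C17.2 (median -0.69 on the log2 scale), and 10 fell and 1 rose in C3.2 (median -0.17). Of all tested genes, 13.9% fell and 13.4% rose in C17.2, and 6.90% fell and 4.46% rose in C3.2. These shares stand beside the S phase and G2 counts below as well. HIST2H3A and HIST2H3C had the same value of -0.39 in C3.2, and whether such copies share reads was not tested. The histone values of C3.2 depended on the processing. After quantile normalization the median was -0.011 and 2 genes fell, and with each clone fitted alone 0 fell. The 44 genes with the stem-loop letters had medians of -0.71 and -0.19 in C17.2 and C3.2, and the 16 in which these letters were not found had medians of -0.67 and -0.14. Of the 14 genes of an S phase list, 3 rose and 4 fell in C17.2 (median -0.12) and 5 fell in C3.2 (median -0.15). On TPM as deposited, 5 of these were called higher and 1 lower in C17.2, with the median turned to 0.040, and 1 was called lower in C3.2, against 0 with each clone fitted alone. Of 8 genes of a G2 and mitosis list, 7 rose in C17.2 (median 0.33), while in C3.2 limma called 0, 2 had an unadjusted p under 0.05 and the median was -0.0059. Without any 1 of the C17.2 libraries, fewer genes of the S phase and of the G2 and mitosis list were called in that clone. The medians in C17.2 then ran from -0.13 to -0.087 for the S phase list and from 0.31 to 0.35 for the other. The part of cell cycle genes in the values of the 9 factors was not tested.

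**Figure D4:**
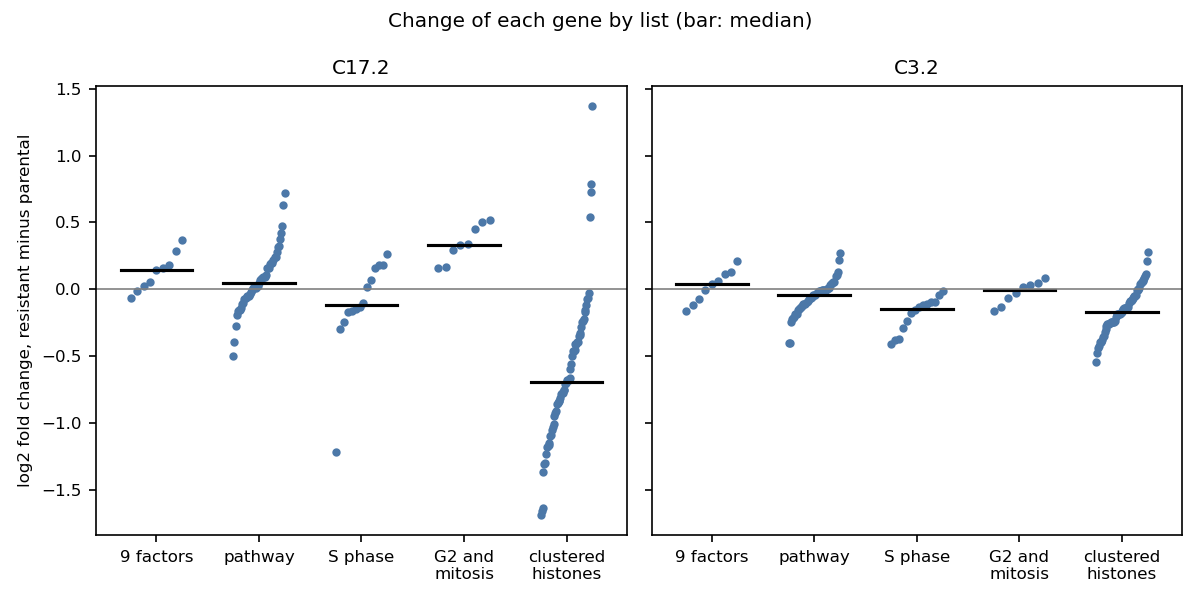
Log2 fold change (vertical axis, resistant minus parental) of each tested gene of 5 lists in C17.2 (left) and C3.2 (right), with bars at list medians. In C17.2 the 9 factors lie close to 0 with a median of 0.15, whereas the clustered histone genes have a median of -0.69.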

How the data were processed

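RNA-seq of 8 libraries was analyzed, 2 for each of 4 groups, grouped by the clone and state in the sample labels. The authors trimmed reads with Trim Galore 0.6.3, used STAR 2.7.9a for alignment against GRCh38 and RSEM 1.3.1 with Gencode for quantification, and deposited TPM for every gene and library. The strand setting is not given in the sources used here. TPM keep no depth, so no counting error can be given. Counts, on which the study ran limma-voom, were not used here. Genes under 1 TPM in every library were dropped. Scale factors came from a mean of log2 ratios that left out 30% of the ratios and 5% of the means at either end. One limma model (version 3.58.1 in R 4.3.3) of the 4 groups was fitted to log2(scaled TPM + 1), with variances moderated along an intensity trend. P-values were two-sided, adjusted by the Benjamini-Hochberg method over all tested genes, with a threshold of 0.05. An exact permutation test of 2 libraries against 2 cannot go below p = 0.333. The model was run on simulated data in which fewer genes were changed than are called here in C17.2. That run checked the size of the estimates and the scale factors, and does not vouch for the calls.

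The 9 factors and all gene lists were chosen with earlier results of these data known. Named besides the 9 were CTCF and RNU7-1, in each clone up to 4 genes of the pathway list with the largest rise and up to 4 with the largest fall among called genes whose libraries did not overlap, the 3 genes most like SLBP and NPAT, and protein-coding genes that start within 1000 bases of a factor or overlap one. Neighbors of other named genes, LYZ, DNTT and genes in the closing section outside this rule were chosen after their values were seen. Positions and sequences came from Gencode release 44 on GRCh38 by gene identifier, and promoters from RefSeq. Tables and plots were made with Python 3.11.15, pandas 2.3.3 and matplotlib 3.10.9.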

Additional observations from a re-analysis of the deposited data

Results flagged for a closer look

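The change between parental and resistant cells differed between the clones for 6 genes of the pathway list in the limma interaction test, where 9.91% of all tested genes were called, given as the log2 fold change in C17.2 minus that in C3.2. SNRPG differed by 0.64 (standard error 0.072, adjusted p = 0.00493) and NCBP2 by 0.50 (standard error 0.063, adjusted p = 0.00694), and both kept this call under all alternatives tried. SNRPE differed by 0.82 (adjusted p = 0.0308), SNRPF by 0.36 (adjusted p = 0.0243), SRRT by 0.35 (adjusted p = 0.0341) and CDK1, the kinase partner of cyclin A2 and cyclin B1, by 0.40 (adjusted p = 0.0481). Leaving out 1 library ended the call of SRRT for each of the 8 libraries (adjusted p of 0.0552 to 0.103), and for SNRPE, SNRPF and CDK1 for 6 of the 8 (up to 0.129, 0.0846 and 0.147). SNRPF and CDK1 were chosen after their values were seen. SNRPE was below its parental libraries in both C3.2 resistant libraries, at 36.8 and 27.3 TPM against 41.6 and 39.0 TPM, with a log2 fold change of -0.40 (adjusted p = 0.0815).

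For 3 further genes, chosen after their values were seen, the scaled resistant libraries were all above the parental ones in C17.2 and all below them in C3.2, and the interaction test did not pass the threshold. SNRPE and SNRPF had the same order of libraries. Of all tested genes, 33.3% were above in C17.2 and 28.1% were below in C3.2. The share with both was not counted, so this order is not shown to be unusual. For the 3 genes, the difference between clones was 0.38 for COIL (coilin, a scaffold of Cajal bodies, adjusted p = 0.0716), 0.72 for SNRPD3 (an Sm protein of the U7 ring, adjusted p = 0.0743) and 0.30 for FEM1C (a ubiquitin ligase adaptor that targets SLBP, adjusted p = 0.0614).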

How the results depend on the processing

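Of the 207 values of the 9 factors under other processing settings, 188 kept direction and side of the threshold, as did 194 of 216 with 1 library left out. Most of these values were uncalled from the start. For a change within a clone, leaving out a library of the other clone alters little but the shared spread. Much of this agreement was therefore set in advance. The cause of the changes below was not tested. Called factors in C17.2 numbered 4 as deposited and 4 with the protein-coding total as the scale, where SLBP and NPAT joined LSM11 and ZNF473, 0 with no filter on low genes and 1 with each clone fitted alone, against 2. Without 1 library the count ran from 0 to 2, with 0 for each of the 4 C17.2 libraries. In C3.2 the count was 1 (LSM10) with the protein-coding total as the scale and 0 to 0 without 1 library, and for the difference between clones 0 to 0. Pathway calls in C17.2 were 22 as deposited (20 higher, 2 lower) and 19 with the protein-coding total as the scale (17 and 2), against 15 (11 and 4). Pathway calls without 1 library ran from 5 to 18 in C17.2 (15 with all), from 0 to 6 in C3.2 (3 with all) and from 2 to 8 for the difference (6 with all). In C3.2 they were 1 without the intensity trend and 0 with each clone fitted alone, where 77 genes in all were called against 1773, and for the difference they were 3 with no filter. Signs turned only for small uncalled values. CASP8AP2 of C17.2 was at 0.14 as deposited, 0.071 on the protein-coding total and 0.0045 with no filter, and CPSF3 at 0.089 and 0.015 in the first 2. NPAT of C3.2 was at 0.056, 0.091 and, after quantile normalization, 0.016, and CASP8AP2 of C3.2 at 0.023 on the protein-coding total. SYMPK's difference between clones was 0.075 as deposited and 0.0058 with no filter. Over left-out libraries the values that turned spanned, in C17.2, -0.072 to 0.051 (CASP8AP2), -0.027 to 0.069 (SYMPK) and -0.0043 to 0.12 (LSM10), in C3.2, -0.088 to 0.074 (NPAT), -0.039 to 0.16 (ZNF473) and -0.026 to 0.10 (SYMPK), and for the difference, -0.081 to 0.046 (SYMPK) and -0.0040 to 0.16 (SLBP). No paired analysis was possible because the labels give no replicate numbers. Depth is unknown, so whether it limits a value could not be checked.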

Other observations

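Beyond the genes named by rule, 6 more genes of the pathway list rose in C17.2, all chosen for naming after their values were seen and besides SNRPF: CSTF3 (0.24, adjusted p = 0.0300) and CSTF2T (0.19, adjusted p = 0.0350), subunits of the cleavage stimulation factor, NXF1 (0.33, adjusted p = 0.00822), the mRNA export receptor, CDK1 (0.28, adjusted p = 0.0254), CCNF (0.16, adjusted p = 0.0399), a cyclin that recruits SLBP for degradation in G2, and FEM1C (0.22, adjusted p = 0.0290), all as log2 fold changes of resistant against parental cells. With 1 library left out in turn, the call was lost for CSTF3 in 3 of 8 cases (adjusted p up to 0.142), CSTF2T in 5 (up to 0.131), NXF1 in 1 (0.0584), CDK1 in 6 (up to 0.120), CCNF in 4 (up to 0.135) and FEM1C in 6 (up to 0.124).

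A Y RNA gene inside CASP8AP2, on the same strand, had 25.0 and 22.4 TPM in parental cells of C17.2, and every other library listed it at 0. The overlap is only 96 bases long, and whether reads from other places in the genome were counted there was not tested.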
